A study of Rattus norvegicus with 8 samples.

Results

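A set of 10 fat cell genes is described here in rat peripheral nerve, spinal cord and cultured Schwann cells. Of the 12765 gene symbols with a deposited value, 10 were taken: 3 genes typical of brown fat (Ucp1, Cidea and Cox8b) and 7 genes of fat cells in general (Adipoq, Retn, Pck1, Cidec, Cfd, Pparg and Gys2). They were selected on their values in these same samples, so the levels and differences below are descriptions. Where a gene had several probes, the one with the highest mean was read.

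The study profiled total RNA of Sprague-Dawley rats on 8 one-colour Agilent arrays, 1 array for each of 8 groups. In adult female rats the common sciatic nerve was cut on one side at mid-thigh, and the distal segment, the proximal segment and the contralateral right nerve were taken on day 1. The contralateral label also names a site of PBS injection. Spinal cord, on day 5, was labelled as a dorsal hemisection and as a C-level control. Time in the cord labels is counted after an injection, but in the protocol after an injury, and the labels do not settle whether the hemisection is a piece of tissue or a lesion. Tissue of 3 animals was pooled for each nerve or cord array. Primary Schwann cells, the glia that wrap peripheral axons, came from sciatic nerves of neonatal rats, were depleted of fibroblasts with AraC and an antibody to Thy1.1 plus complement, and grew in a medium with forskolin and serum. They were left unstimulated or given the calcium-binding protein complex S100A8/A9 at 5 µg/ml for 1 h or 24 h, and the unstimulated culture was that of 24 h.

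White fat cells store triglyceride in one large droplet and secrete hormones such as adiponectin and resistin. Brown fat cells hold many small droplets and many mitochondria, and burn fatty acids for heat through UCP1, a proton carrier of the inner mitochondrial membrane, under noradrenergic control. In rats, white fat lies around limb nerves and in the epineurium, the outer sheath of a nerve, and brown fat lies between the shoulder blades, in the neck and along the upper spine.

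All values are the authors' deposited log2 values by the column headings, on a scale with an unknown offset and a median of 8.03 in each column. The scanner file recorded under a sample was another array for 7 of the 8 columns, by rank over 24894 probes, and only the distal nerve had the same array in both. The headings put the neuron markers where the labels would: their median was 11.7 and 13.1 in the hemisection and C-level cord and at most 4.96 elsewhere. The oligodendrocyte and astrocyte lists had their highest medians in the same 2 cord samples. Macrophage markers had medians from 9.95 to 11.9 in the 5 tissues and from 2.37 to 3.03 in the cultures, and Schwann cell and myelin markers were present in all 8 samples. These markers do not check labels within 1 tissue, and each direction below rests on the headings. The slide and the scan were the same for the 8 arrays. The share of the 30367 probes well above background was between 66.7% and 77.6%.

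With 1 array a group there is no replicate, no test and no p-value, and a difference is called when it is at least 2-fold. Errors given as ± are technical only, from the scatter of repeated spots, and leave out differences between animals. A gene not well above background on one array has only a nominal bound there, given as "at least" or "at most". No difference is given when it was so on both. The bound uses the gene's own dim value or, if higher, the lowest value well above background on that array. It is a convention on the deposited scale, not a limit of detection, and other processing gave smaller differences for several genes. In tissue, fewer cells of a type and less RNA per cell cannot be told apart.

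Ucp1, which encodes the uncoupling protein that defines brown fat, was at 4.32 in the distal, 4.52 in the proximal and 3.36 in the contralateral nerve. It reached 6.28 in the dorsal hemisection and 12.52 in the C-level cord, and stood at 3.07, 3.58 and 2.94 in Schwann cells left unstimulated or stimulated for 1 h and 24 h. The C-level cord was the one sample with a high level. Ucp1 was not well above background in the contralateral nerve or in any of the 3 cultures. The 300 bases around its start (RefSeq, GRCr8, chr19:41721372-41721671, minus strand) are shown as the promoter of the gene with the widest gap between the 2 cord samples among the brown genes. Capitals mark TGACG, the core of a cAMP response element, and the TATAAA box, which begin 137 and 30 bases before the start.
Ucp1: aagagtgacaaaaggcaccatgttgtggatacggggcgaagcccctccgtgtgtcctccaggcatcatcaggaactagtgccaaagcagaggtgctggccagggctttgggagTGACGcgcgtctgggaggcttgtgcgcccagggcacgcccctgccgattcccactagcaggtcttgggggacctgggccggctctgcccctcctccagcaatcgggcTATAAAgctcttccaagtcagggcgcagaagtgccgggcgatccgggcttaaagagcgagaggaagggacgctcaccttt

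Cidea, a lipid droplet protein of brown fat cells, read 10.15 in the distal, 9.91 in the proximal and 11.37 in the contralateral nerve. It was at 10.31 in the dorsal hemisection and 12.64 in the C-level cord, and at 7.38, 6.88 and 7.58 in the cultures at rest, at 1 h and at 24 h. All 5 tissues exceeded all 3 cultures, and the C-level cord was the highest sample. A second Cidea probe had the same order of the C-level cord (9.92) and the contralateral nerve (9.50) over the other tissues (7.61 to 8.05), with 5.46 to 5.78 in the cultures.

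Cox8b encodes a heart-type subunit of cytochrome c oxidase that muscle and brown fat both use. It was at 6.92 in the distal, 9.73 in the proximal and 6.36 in the contralateral nerve, at 7.46 in the dorsal hemisection and 11.32 in the C-level cord, and at 6.16, 6.12 and 5.84 in the cultures. The samples that stood out were the C-level cord and the proximal nerve. The contralateral nerve exceeded the unstimulated culture by 0.20 ± 0.27, which is within the technical error.

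Adipoq, which encodes the hormone adiponectin, was at 13.79 in the distal, 13.10 in the proximal and 14.48 in the contralateral nerve, against 1.69, 1.73 and 1.69 in the cultures. In the cord it was at 2.66 in the dorsal hemisection, not well above background, and at 9.31 in the C-level sample. The 3 nerves were high, the C-level cord intermediate, and the hemisection and the cultures at background. Its promoter is shown beside that of Ucp1 as the gene with the lowest difference of the hemisection from the C-level cord (RefSeq, GRCr8, chr11:91240120-91240419, minus strand). It holds none of the 3 motifs set in capitals elsewhere, which says only that these letters are not in this window.
Adipoq: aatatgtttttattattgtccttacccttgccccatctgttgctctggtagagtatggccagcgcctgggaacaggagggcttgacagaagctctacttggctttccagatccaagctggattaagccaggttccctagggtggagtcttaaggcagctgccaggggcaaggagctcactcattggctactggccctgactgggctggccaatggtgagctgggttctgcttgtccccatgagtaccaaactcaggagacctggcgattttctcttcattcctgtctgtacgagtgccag

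Retn, which encodes resistin, a hormone that rodent fat cells secrete, had 14.04, 13.40 and 14.20 in the distal, proximal and contralateral nerve. It was at 6.81 in the dorsal hemisection and 11.65 in the C-level cord, and at 3.19, 1.80 and 3.96 in the cultures, none of them well above background. The 3 nerves were again highest and the C-level cord came next.

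Pck1, a cytosolic enzyme that makes glycerol phosphate for triglyceride in fat and glucose in liver, was at 5.24 in the distal and 4.65 in the proximal nerve, against 8.87 in the contralateral nerve. It had 2.03 in the dorsal hemisection, not well above background, and 7.26 in the C-level cord. The cultures had 2.0, 2.13 and 2.07, all at background. The high samples were the uncut nerve and the C-level cord. Its promoter (RefSeq, GRCr8, chr3:182348322-182348621, plus strand) is shown because this gene had the lowest ratio of cut to uncut nerve among the 10. Capitals mark AGGTCA, a nuclear receptor core site that begins 144 bases before the start, and TGACG on the other strand, written CGTCA, 90 bases before it.
Pck1: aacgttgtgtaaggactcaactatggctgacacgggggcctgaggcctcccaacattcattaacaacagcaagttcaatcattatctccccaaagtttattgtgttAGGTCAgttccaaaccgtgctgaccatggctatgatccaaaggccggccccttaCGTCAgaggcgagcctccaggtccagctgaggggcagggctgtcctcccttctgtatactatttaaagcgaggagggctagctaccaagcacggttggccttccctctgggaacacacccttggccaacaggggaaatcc

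Of 33469 RefSeq promoters of this length, on either strand, 14.2% hold TATAAA, 16.2% AGGTCA and 21.2% TGACG. Each motif was in 3 of the 11 promoters of these 10 genes, Pparg having 2. TATAAA was in those of Cox8b, Pparg and Ucp1, AGGTCA in those of Gys2, Pck1 and Retn, and TGACG in those of Cfd, Pck1 and Ucp1. The full cAMP response element TGACGTCA (1.83% of all promoters) was in none of the 11. The same holds for AGGTCANAGGTCA (0.0538%), a pair of core sites of the kind that PPARG and its partner RXR bind, and for the E-box CACGTG (6.42%). GGGCGG, present in 33.1%, was in 5 of the 11, and CCAAT, present in 37.5%, in 3. Shorter motifs lie within longer ones (TGACG in TGACGTCA), and a match is a description of letters, not a binding site.

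Cidec, a protein that fuses lipid droplets, was at 9.01, 8.32 and 9.88 in the distal, proximal and contralateral nerve, at 1.74 in the dorsal hemisection and 5.49 in the C-level cord, and at 2.89, 3.14 and 1.82 in the cultures. It was at background in the hemisection and in all 3 cultures. Cfd, the secreted protease adipsin of the complement system, had 16.54, 16.06 and 17.08 in the distal, proximal and contralateral nerve. In the cord Cfd was at 13.00 in the dorsal hemisection and 11.32 in the C-level sample, and in the cultures at 4.09, 4.11 and 4.71. It is the one gene of the 10 with the hemisection above the C-level cord.

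Pparg, the nuclear receptor that drives fat cell differentiation, was at 11.43, 10.72 and 12.29 in the distal, proximal and contralateral nerve. It was at 6.12 in the dorsal hemisection, at 8.49 in the C-level cord and at 8.36, 8.0 and 8.41 in the cultures. Well above background in all 8 samples, it was lowest in the hemisection, below the cultures. Gys2 encodes the glycogen synthase of liver, which fat also expresses. It had 8.11, 7.80 and 8.92 in the distal, proximal and contralateral nerve, 3.63 in the dorsal hemisection, 8.60 in the C-level cord, and 3.02, 2.08 and 3.40 in the cultures. The C-level cord reached the level of the nerves for this gene.

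**Figure D1:**
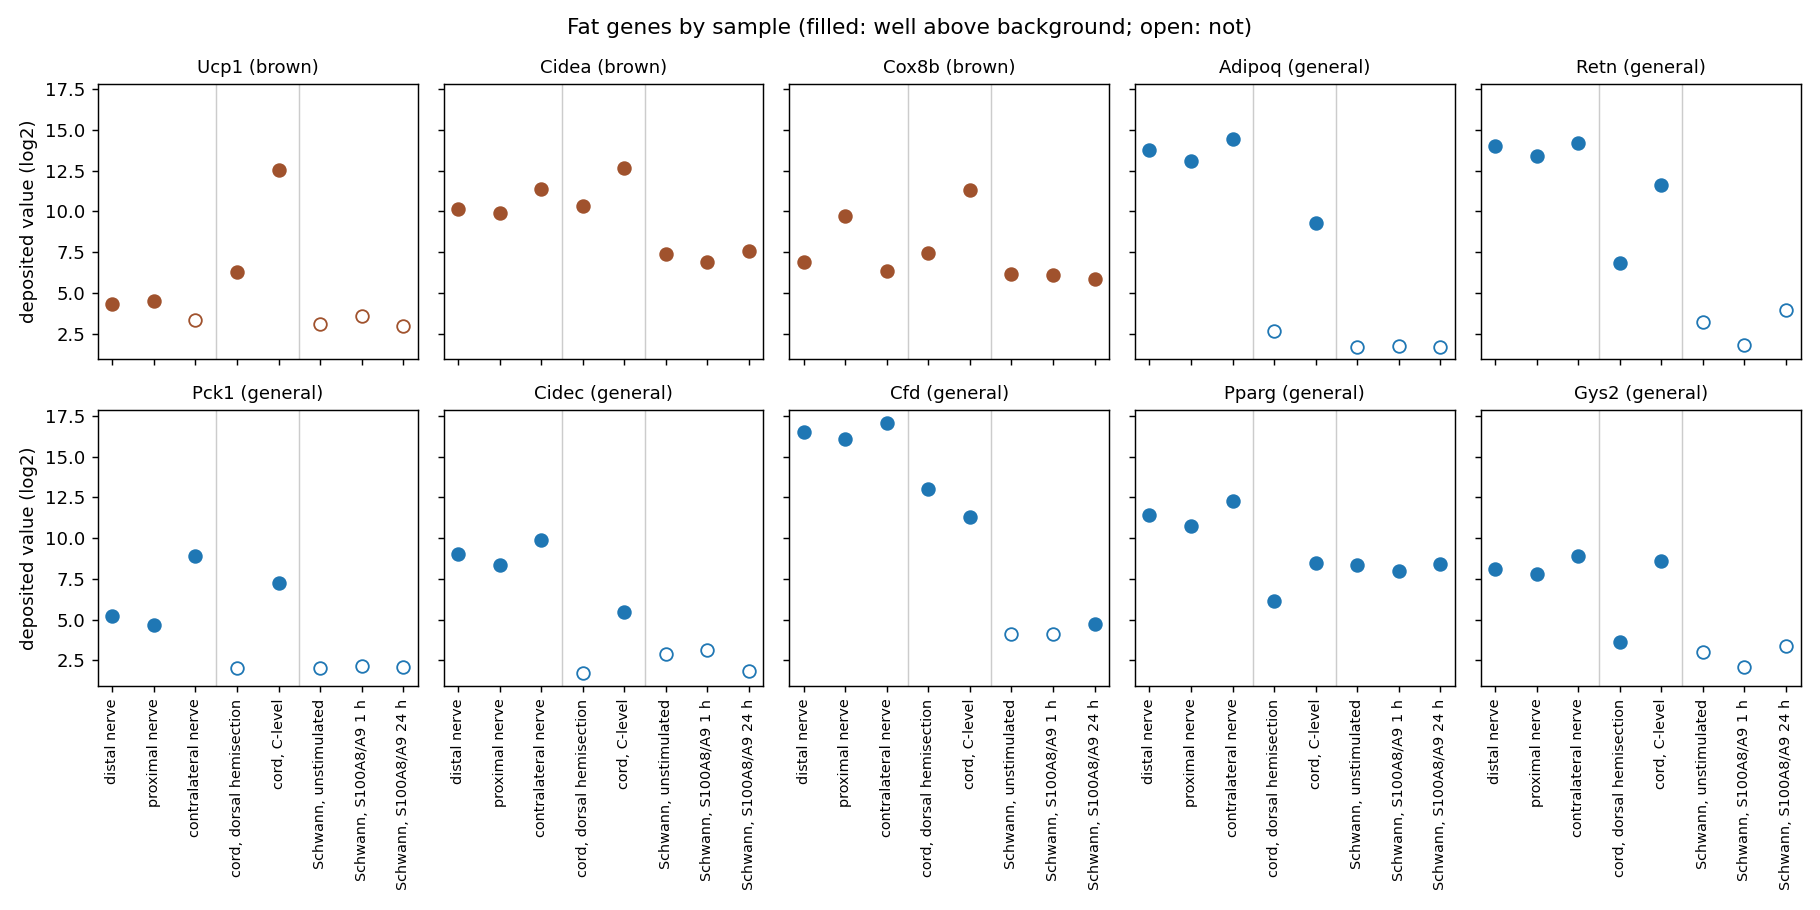
Deposited log2 value (vertical axis, unknown offset) of each of the 10 fat genes in the 8 samples (horizontal axis), 1 array each, with brown fat genes in brown and general fat genes in blue; open points were not well above background. All 3 brown genes peak in the C-level cord (Ucp1 12.52, Cidea 12.64, Cox8b 11.32), and all 7 general genes in the contralateral nerve (Adipoq 14.48).

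The highest sample was the C-level cord for all 3 brown genes and the contralateral nerve for all 7 general genes. Over the 8 columns Ucp1 spanned 9.58 log2 units, Cidea 5.76 and Cox8b 5.48. Among general genes the span was widest for Cfd (12.98) and Adipoq (12.79) and narrowest for Pparg (6.17). Part of each span lies below background where a gene was not detected.

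Each tissue was first set against the unstimulated Schwann cells. In the distal nerve 8 of the 10 genes were at least 2-fold higher, while 18.4% of all genes measured were. In the proximal nerve it was 10 of 10 (background 18.5%), and in the contralateral nerve 8 of the 9 that could be measured (20.6%). In the dorsal hemisection 5 of 7 were higher (21.3%) and 1 was lower (24.4%), and in the C-level cord 9 of 10 were higher (23.7%). The shares of higher genes lie far above the background, but the genes were selected on such differences and nothing is read from that.

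General fat genes led in the nerves. In the contralateral nerve Cfd exceeded the unstimulated culture by at least 12.98, Adipoq by at least 11.04, Retn by at least 10.76, Cidec by at least 6.44, Gys2 by at least 5.47, Pck1 by at least 5.42 and Pparg by 3.93 ± 0.10. Of the brown genes there, Cidea was 3.99 ± 0.14 higher and Ucp1 could not be measured. The median difference was 2.10 over 2 brown genes and 6.44 over 7 general genes. The distal nerve had medians of 0.88 and 5.56, and the proximal nerve of 2.53 and 4.88, for 3 brown and 7 general genes. The brown median was lower than the general one in each nerve. The exception among the alternatives that keep the headings was the proximal nerve, where the gap was 0.68 over the few genes above background on both arrays. After normexp and quantile normalization of the scanner signals, Cfd was at 10.57, Adipoq at 8.12 and Retn at 7.69 in the contralateral nerve, below the bounds given above. Cidec was then between 2.16 and 3.54 and Gys2 between 1.69 and 2.59 in the 3 nerves. Pck1 was then at 2.56 in the contralateral nerve and within 2-fold in the distal (0.42) and proximal nerve (0.24), as was Ucp1 in the proximal nerve (0.15).

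By the deposited values the 2 kinds stood level in the C-level cord, at a median of 5.26 for brown and 5.15 for general genes over the unstimulated culture. Ucp1 was at least 9.08 higher (at least 540-fold), Retn at least 8.21, Cfd at least 7.23, Adipoq at least 5.86, Cidea 5.26 ± 0.12, Cox8b 5.16 ± 0.20 and Gys2 at least 5.15. Pck1 was at least 3.81 and Cidec at least 2.04 higher, while Pparg differed by 0.13 ± 0.10. The sign of this small gap between the medians (0.10) changed with the processing. It was -0.47 on the scanner signals and 2.26 after normexp and quantile normalization, and -0.25 when Cidec, Pck1 or Pparg was left out. The brown genes stood further above the general genes with means, and over the few genes above background on both arrays. Most general values are lower bounds, since these genes were at background in the culture. With normexp Ucp1 stood at 5.97, Adipoq at 3.13, Retn at 5.23, Gys2 at 2.37 and Pck1 at 1.30, and Cidec, at 0.46, was within 2-fold.

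In the dorsal hemisection all 3 brown genes and 2 of the general genes, Cfd and Retn, were at least 2-fold above the unstimulated culture. Cidea was 2.93 ± 0.13, Ucp1 at least 2.83 and Cox8b 1.30 ± 0.20 higher. Among general genes Cfd was at least 8.91, Retn at least 3.37 and Gys2 at least 0.18 higher, and Pparg was lower, at -2.24 ± 0.12. Adipoq, Pck1 and Cidec were not well above background in either. The medians were 2.83 over 3 brown and 1.77 over 4 general genes, a gap of 1.06 that became -0.41 after normexp and quantile normalization and -0.54 when Gys2 or Pparg was left out. Under that normalization Ucp1 (0.70) and Cox8b (0.73) were within 2-fold and Retn was at 1.14.

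**Figure D2:**
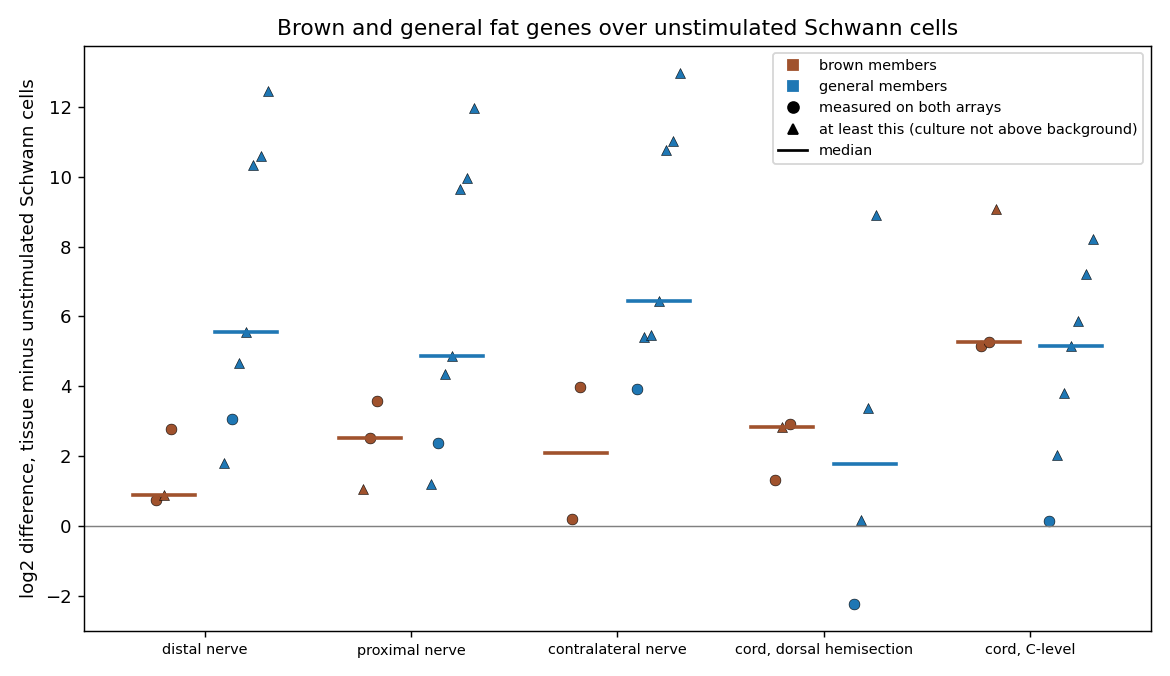
Log2 difference of each tissue from unstimulated Schwann cells (vertical axis) for the brown (left of each pair) and general (right) fat genes, with bars at the medians; triangles are lower bounds, as the culture was not above background. General genes lie higher in the 3 nerves (medians 5.56, 4.88 and 6.44), and the 2 medians meet in the C-level cord at 5.26 and 5.15. Most general values there are lower bounds, and the gap between the medians changed sign with the processing.

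Nearly all of the genes were lower in the dorsal hemisection than in the C-level cord: 9 of 10 by at least 2-fold, against 9.26% of all genes measured. Adipoq differed by at most -6.65 and Ucp1 by -6.25 ± 0.05, the lowest and second lowest of 12165 genes. Ucp1 was 75.9-fold lower in the hemisection. Gys2 differed by -4.97 ± 0.34, Retn by -4.84 ± 0.10, Pck1 by at most -4.75 and Cox8b by -3.86 ± 0.08. These 4 ranked 6th, 7th, 8th and 13th from the bottom. Cidec (at most -2.98, 24th), Pparg (-2.37 ± 0.11, 57th) and Cidea (-2.33 ± 0.06, 65th) followed. Both kinds were lower together, with medians of -3.86 and -4.75. After normexp and quantile normalization of the scanner signals Adipoq stood at -3.19, Gys2 at -2.44 and Pck1 at -1.42, and Cidec, at -0.58, was no longer past 2-fold. Cfd alone was higher in the hemisection, by 1.68 ± 0.06, as were 10.1% of all genes. Macrophage markers were higher in the hemisection too, 8 of 9 by at least 2-fold with a median of 1.59, and their part in the Cfd difference was not tested.

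The C-level cord was also set against the contralateral nerve, a comparison added after the data had been seen, between different tissues and days. The brown genes were higher and most general genes lower. Ucp1 was at least 9.16 higher in the C-level cord (at least 571-fold), the 20th highest of 12192 genes. Cox8b was 4.96 ± 0.19 and Cidea 1.27 ± 0.08 higher there, so all 3 brown genes passed 2-fold, as did 18.4% of all genes. Of the 7 general genes 6 were lower in the C-level cord, as were 19.8% of all genes. Cfd differed by -5.76 ± 0.08, Adipoq by -5.18 ± 0.08, Cidec by -4.39 ± 0.21, Pparg by -3.80 ± 0.10, Retn by -2.55 ± 0.08 and Pck1 by -1.61 ± 0.14. Gys2 was within 2-fold at -0.32 ± 0.10. The medians were 4.96 for brown and -3.80 for general genes. Ucp1 was at 5.99 after normexp and quantile normalization, and Cidea, as the mean of its 2 probes, was within 2-fold at 0.85.

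**Figure D3:**
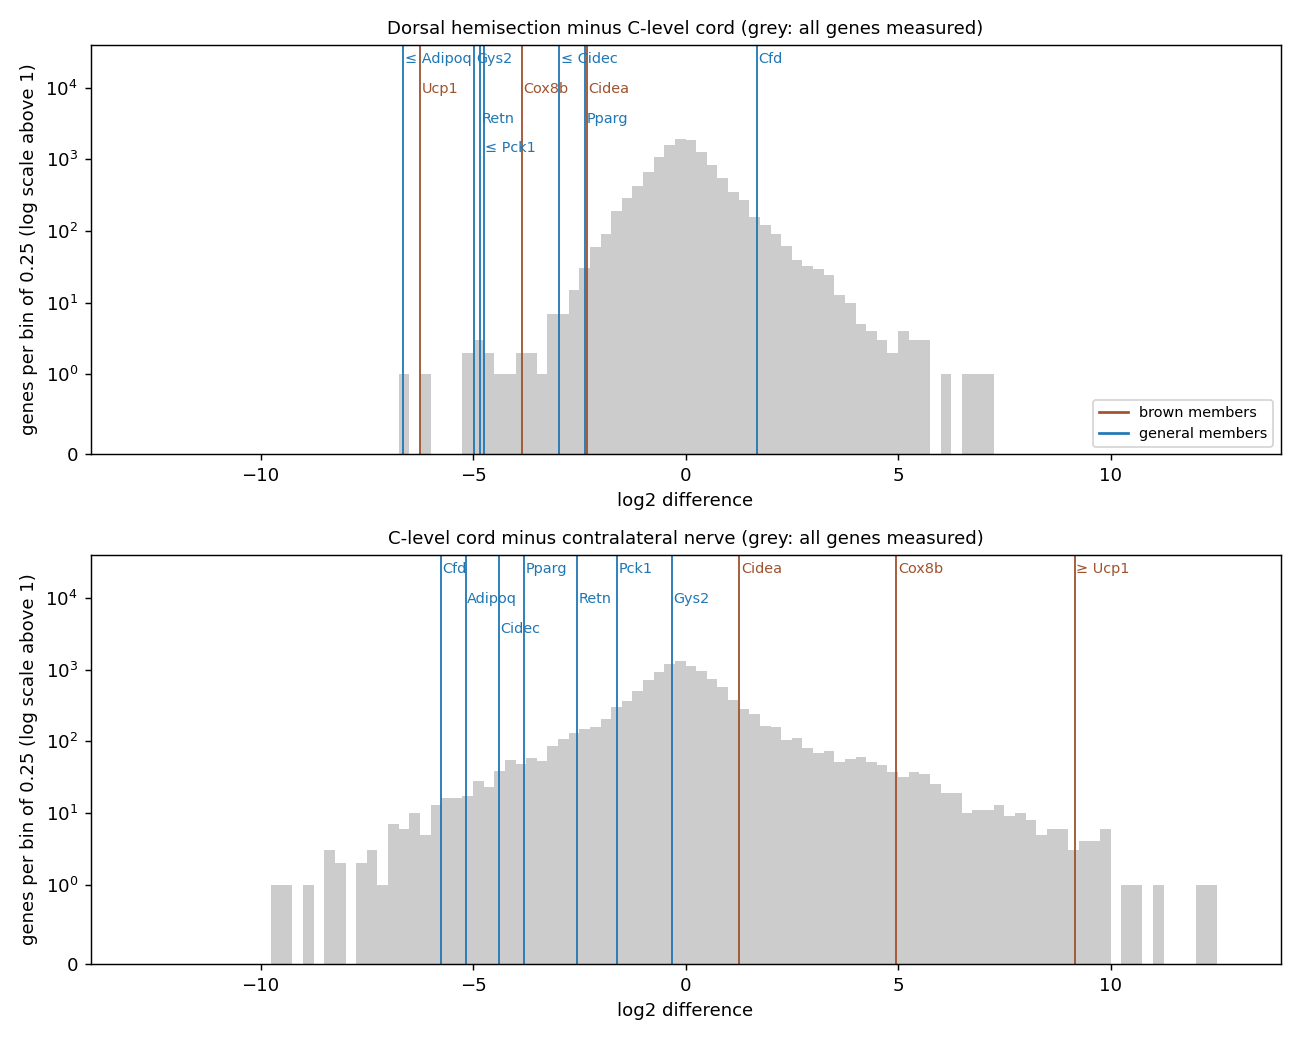
Number of genes (vertical axis, log scale above 1) by log2 difference (horizontal axis) for the dorsal hemisection minus the C-level cord (top) and the C-level cord minus the contralateral nerve (bottom), with lines at the fat genes. In the top plot 9 of the 10 lie at the low end and Cfd at 1.68; in the bottom plot the brown genes lie between 1.27 and at least 9.16 and the general genes between -5.76 and -0.32.

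Of the 7 general fat genes, 6 were at least 2-fold lower in the proximal and 1 in the distal than in the contralateral nerve. In the proximal nerve 7 of 10 genes were at least 2-fold lower than in the contralateral nerve, against 12.0% of all genes. Pck1 differed by -4.22 ± 0.21, the 13th lowest of 12125 genes, Cidec by -1.56 ± 0.09, Pparg by -1.56 ± 0.08, Cidea by -1.46 ± 0.08 and Adipoq by -1.38 ± 0.07. Gys2 was at -1.12 ± 0.12, Cfd at -1.02 ± 0.07 and Retn within 2-fold at -0.80 ± 0.07. The 2 genes higher in the proximal nerve were Cox8b, by 3.37 ± 0.19, and Ucp1, by at least 1.16, while 11.2% of all genes were higher. After normexp and quantile normalization Pck1 was at -2.32, and Gys2 (-0.91), Cfd (-0.99) and Ucp1 (0.17) were within 2-fold. In the distal nerve Pck1 (-3.62 ± 0.14) and Cidea (-1.22 ± 0.08) were at least 2-fold lower, against 14.4% of all genes, and none of the 10 was higher. The other general genes lay between -0.87 and -0.16 there, all below 0 and all within 2-fold. Both comparisons share the 1 contralateral sample.

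Between the cut segments, Cox8b was lower in the distal than in the proximal nerve, with a difference of -2.81 ± 0.10, the 39th lowest of 12193 genes, and was the one gene of the 10 past 2-fold, as were 1.94% of all genes. The 7 general genes were between 0.32 and 0.71 higher in the distal nerve. Skeletal muscle genes moved with Cox8b: 19 of 19 were at least 2-fold lower in the distal than in the proximal nerve, with a median of -3.26. In the proximal nerve 17 of 19 were higher than in the contralateral nerve, with a median of 3.32, against 11.2% of all genes. Cox6a2, the muscle subunit of the same enzyme complex, was at 8.18 in the distal, 11.55 in the proximal and 6.02 in the contralateral nerve. The part of muscle RNA in the Cox8b values was not tested.

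**Figure D4:**
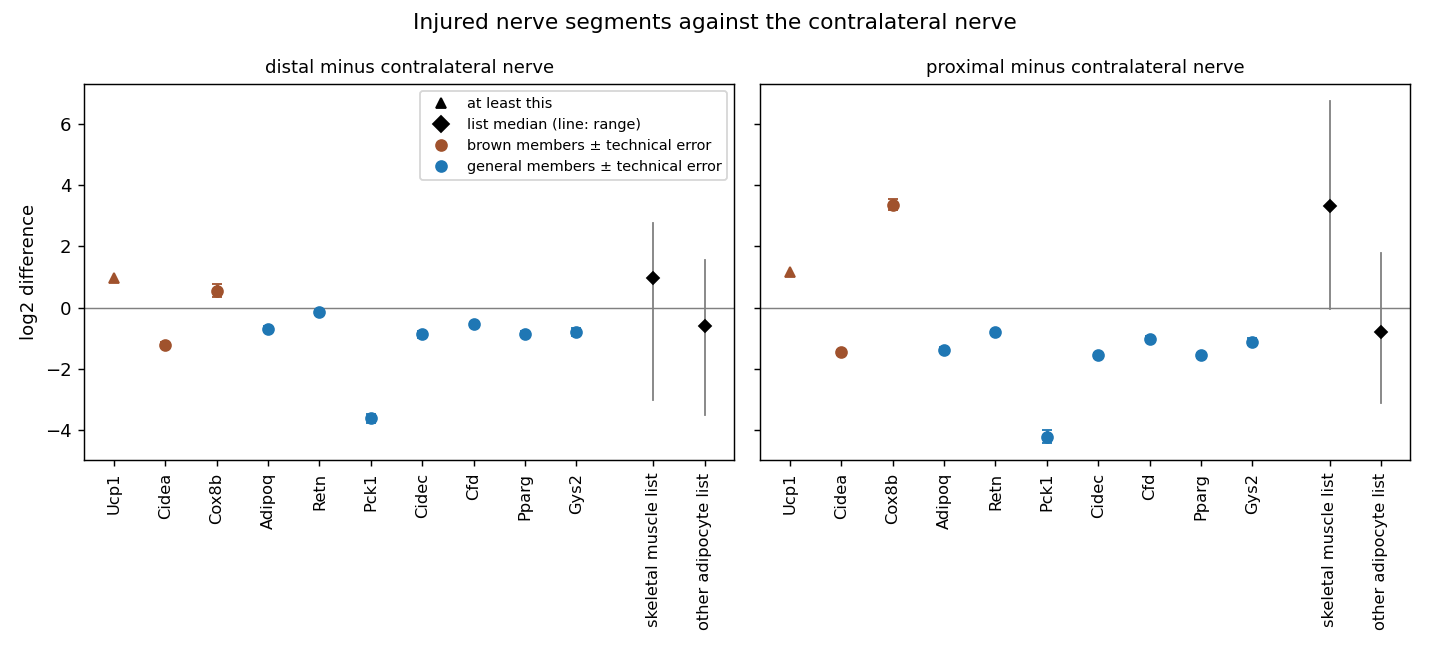
Log2 difference (vertical axis) of the distal (left) and proximal (right) nerve from the contralateral nerve for each fat gene, with technical errors, and the median and range of the skeletal muscle and other adipocyte lists; triangles are lower bounds. Pck1 is lowest in both (-3.62 and -4.22), and Cox8b (3.37) lies near the muscle median (3.32) in the proximal nerve.

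Stimulation of Schwann cells with S100A8/A9 gave no fat gene a 2-fold difference. At 1 h 3 genes could be measured. Cidea differed from the unstimulated culture by -0.50 ± 0.23, Pparg by -0.36 ± 0.14 and Cox8b by -0.04 ± 0.28. At 24 h 4 genes could be measured: Cidea at 0.20 ± 0.15, Pparg at 0.06 ± 0.10, Cox8b at -0.32 ± 0.37 and Cfd at least 0.62. Of all genes, 1.66% were at least 2-fold higher and 1.35% lower at 1 h, and 0.609% higher and 0.627% lower at 24 h. Adipoq, Ucp1, Retn, Pck1, Cidec and Gys2 were at background in all 3 cultures.

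Other genes linked to brown fat were read from a list of 24, of which 16 had a deposited value. Over unstimulated Schwann cells 11 of 15 measured were at least 2-fold higher in the C-level cord (median 1.71), against 23.7% of all genes. In the dorsal hemisection 7 of 15 were higher (21.3% of all genes). In the nerves it was 8 of 15 distal (18.4%), 7 of 14 proximal (18.5%) and 7 of 13 contralateral (20.6%). In the hemisection against the C-level cord 7 of 15 were lower and 1 higher, with a median of -0.97. Of all genes, 9.26% were lower and 10.1% higher in that comparison. Slc27a2, a fatty acid transporter, was at 7.25 in the hemisection and 9.48 in the C-level cord, and not well above background in the contralateral nerve (2.90) or the cultures. Cpt1b, the muscle and brown fat enzyme that admits fatty acids to mitochondria, had 8.25 in the hemisection and 10.68 in the C-level cord, its highest sample, against 9.22 in the contralateral nerve. Ucp3, an uncoupling protein relative of muscle and brown fat, had 5.61 in the hemisection and 7.24 in the C-level cord, and Ppargc1a, a coactivator that drives mitochondrial growth, 5.35 and 6.66 in the same 2 samples. All 4 had their highest value in the C-level cord.

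Several genes of that list did not follow Ucp1. Ebf2, a transcription factor of brown fat precursors, was highest in the contralateral nerve at 9.80, with 5.44 in the hemisection and 6.42 in the C-level cord. Dio2, which makes active thyroid hormone, was highest in the proximal nerve at 7.12, with 3.60 in the hemisection and 4.89 in the C-level cord. Zic1, which also marks dorsal neural tissue, was at 8.08 in the hemisection and 7.15 in the C-level cord and at background in the other 6 samples. Cited1 had 7.21 in the hemisection and 9.49 in the C-level cord, but as much as 9.77 in the unstimulated culture. Epsti1 was the 1 gene of the list at least 2-fold higher in the hemisection (8.42, against 6.85 in the C-level cord). Lhx8 was well above background in the distal nerve only (3.62). Gk, glycerol kinase, had 7.24 in the hemisection and 8.64 in the C-level cord, past 2-fold. Otop1, Acot2, Letm1, Kcnk3 and Mtus1 were each within 2-fold between the 2 cord samples. Elovl3, Fgf21 and Plin5 had a probe outside the value table that was not well above background on any of the 8 arrays.

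Mitochondrial respiration and fatty acid oxidation genes, which every cell type uses and brown fat holds in plenty, were mostly within 2-fold. Of 22, 20 were so between the dorsal hemisection and the C-level cord (median -0.09), and 2 were lower in the hemisection. Of all genes, 9.26% were lower and 10.1% higher there. Between the C-level cord and the contralateral nerve 16 were within 2-fold (median 0.54). In the C-level cord 5 were higher and 1 lower, against 18.4% and 19.8% of all genes. Most of all genes were within 2-fold in both comparisons too. Of the genes with the highest and lowest differences from the unstimulated culture, Acaa2, an enzyme of fatty acid oxidation, had 11.23 in the hemisection and 10.98 in the C-level cord, and Cox4i1, a subunit of cytochrome c oxidase, 16.35 and 16.82 in the same 2 samples.

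Further adipocyte genes, 30 of a list of 34, ran from all well above background in the 3 nerves to 28 in the dorsal hemisection and 29 in the C-level cord, and 23 to 25 in the cultures. Their median level was 10.8, 10.6 and 11.5 in the distal, proximal and contralateral nerve, 9.31 in the hemisection, 10.4 in the C-level cord and from 6.69 to 7.05 in the cultures. Fabp4, the fatty acid binding protein of fat cells, was at 13.50, 13.00 and 14.32 in the 3 nerves, at 8.62 in the hemisection and at 10.40 in the C-level cord. Aqp7, the glycerol channel of fat, had 8.54, 7.71 and 9.53 in the nerves, was at background in the hemisection (1.97) and reached 6.54 in the C-level cord. Cd36, a fatty acid receptor that endothelium and macrophages also express, was nearly level between the 2 cord samples, at 10.88 and 10.83. Gpd1, which glia also express, was at 13.16 in the hemisection and 14.50 in the C-level cord, against 13.18 in the contralateral nerve.

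By median this list followed the general fat genes across the comparisons of tissues, at smaller size. It had 14 of 30 lower and 1 higher in the proximal than in the contralateral nerve (median -0.81). Of all genes, 12.0% were lower and 11.2% higher there. In the distal nerve 8 were lower and 1 higher (median -0.61), against 14.4% of all genes lower. In the hemisection against the C-level cord 9 of 29 were lower (9.26% of all genes) and 1 higher (10.1%), with a median of -0.69. In the C-level cord against the contralateral nerve 15 of 30 were lower (19.8%) and 4 higher (18.4%), with a median of -1.03. Lep, which encodes leptin, had a probe outside the value table that was above background in the proximal and contralateral nerve only.

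All 7 general fat genes were at least 2-fold above the unstimulated culture in each of the 3 nerves by the deposited values. Pck1 lay below the column median of 8.03 in the distal (5.24) and proximal nerve (4.65). After normexp and quantile normalization Pck1 was within 2-fold of the culture in both. Of the 30 further adipocyte genes, 16 were at least 2-fold higher in the distal, 14 in the proximal and 18 in the contralateral nerve. In the same order 3, 3 and 1 were at least 2-fold lower. The general fat genes Adipoq, Pck1 and Cidec, with Aqp7, were at background in the hemisection and well above it in the C-level cord. The other 4 of the 7 general genes (Cfd, Retn, Pparg and Gys2) were well above background in the hemisection. So were 28 of the 30 further adipocyte genes. Whether fat that adjoins the nerve or the cord was in the samples was not tested. The defining brown gene Ucp1 was at or near background in the 3 nerves, with 4.52 as the highest value. Of 21 skeletal muscle genes, 19 had a value. These also stood higher in the C-level cord than in the contralateral nerve (13 of 19, median 1.98), against 18.4% of all genes. They stood lower in the hemisection than in the C-level cord (14 of 19, median -1.19), against 9.26% of all genes. Their median levels were 8.66, 11.6 and 7.78 in the distal, proximal and contralateral nerve, 9.13 in the hemisection, 9.69 in the C-level cord and from 5.46 to 6.01 in the cultures. Pvalb, with 12.67 in the hemisection and 14.25 in the C-level cord, is a gene that neurons share with muscle.

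Genes of other tissues that express single members were read as well. Of liver and kidney genes, which share Pck1 and Gys2, 7 of 11 had a value. In the hemisection against the C-level cord, of 6 measured, 1 was higher, 2 lower and 3 within 2-fold (median -0.50). Of all genes, 10.1% were higher and 9.26% lower there. Alb, the defining liver gene, had 2.90 in the hemisection, not well above background, and 7.42 in the C-level cord, against 7.38 in the contralateral nerve. Ttr, transthyretin, which liver and choroid plexus make, had 8.48 in the hemisection and 5.54 in the C-level cord, and Umod, a kidney gene, 5.27 and 5.31 in the same 2 samples. Fibroblast and preadipocyte genes were lower in the C-level cord than in the contralateral nerve (12 of 13, median -3.66), against 19.8% of all genes. In the hemisection 6 of 13 were higher than in the C-level cord and 2 lower (median 0.88), against 10.1% and 9.26% of all genes. Smooth muscle and endothelial genes had medians of 0.53 in the hemisection against the C-level cord and -1.09 in the C-level cord against the contralateral nerve. Neutrophil genes had a median of 1.61 in the hemisection against the C-level cord. Of the adrenergic genes, the fat receptor Adrb3 was at 7.31, 6.23 and 8.13 in the distal, proximal and contralateral nerve, at 4.94 in the hemisection and at 6.86 in the C-level cord. The part of these cell types in the fat gene values was not tested.

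Likeness was measured by Pearson's correlation over the 8 columns, among 5810 genes that spanned at least 2 log2 units and were not at background everywhere, as a description only. The 10 genes most like Ucp1 had r from 0.980 to 0.990, all well above background in the C-level cord and 6 of them on that array alone. They were Rnase12, C2h4orf17, Or5al7, Slc25a4, Kcnj6, Ccdc68, Rgs8, Defb1, Irx4 and Piga, so the likeness turns mostly on the 1 column. Slc25a4, a mitochondrial carrier of ADP and ATP, had 13.95 in the hemisection and 15.02 in the C-level cord. Cox8b had r = 0.851 with Ucp1, Cidea 0.710 and Adipoq 0.154.

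The 10 genes most like Adipoq had r from 0.977 to 0.993. They were Ces1d, Obp3, Lpl, Slc22a3, Vill, Isl1, Cesl1, Gpihbp1, Ccl21 and Mup4. Of these 10, 8 were well above background in the C-level cord, all but Vill and Isl1. Vill was well above background on 1 array only and Isl1 on 3, so their r rests largely on dim values. Lpl, the lipoprotein lipase of fat and muscle, had 11.64, 10.92 and 12.16 in the distal, proximal and contralateral nerve, 6.98 in the hemisection and 9.13 in the C-level cord. Among the members Cidec (0.976), Retn (0.970) and Gys2 (0.950) came next, then Cfd (0.889), Pparg (0.868) and Pck1 (0.848). These columns share 1 slide and 1 normalization.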

How the data were processed

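Total RNA of 8 groups, 1 array each, was measured. Per the file headers, the deposited scanner files hold spot intensity from Feature Extraction version 10.7.3.1. Version 10.5 of Agilent Feature Extraction stands in the submitters' processing notes. The authors deposited a value table of 24894 probes in log2, whose columns share their median. No label or header says how it was normalized. The highest value of the Schwann cell and myelin list was 18.0002 in both the contralateral nerve and the C-level cord. It was 17.8652 in both the proximal nerve and the dorsal hemisection. Whether all columns were set to the same distribution was not tested. The columns of the value table, by their headings, gave all main values. Background flags and spot errors came from the scan ranking as each column does (Spearman rho next best at most 0.993).

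Probe accessions were matched to RefSeq symbols (GRCr8), 15213 of the table's probes matching. The headers name rn4, so promoter coordinates are those of GRCr8 only. A dim probe below the lowest value among genes above background on its array was raised to that value, and other dim probes kept their own. The technical error is the spot SD, pooled in 10 bins of level, over the root of the number of spots. Differences were computed with Python 3.11.15, pandas 2.3.3 and numpy 2.4.6. The code was checked on a copy of the value table with exact differences planted in it. That checks the counting only, not how the floor or the flags behave with real noise. The alternatives changed the source of values, probe, filter, fold, list summary and culture. Normexp used limma 3.58.1 in R 4.3.3 with an offset of 50 on median signals, as the files hold no mean signal.

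The members and lists were chosen with earlier results of these data known. The named genes are all members, the measured genes of the other brown list, examples among the 3 highest and 2 lowest of other lists over the unstimulated culture in the contralateral nerve and hemisection, and the 10 most like Ucp1 and Adipoq. Lpl, Cox6a2, Aqp7 and Adrb3 fall under these rules. Lep, Elovl3, Fgf21 and Plin5 fall outside them and were named after their values were seen; they have no deposited value and are given by their background flags.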

Additional observations from a re-analysis of the deposited data

How the results depend on the processing

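No paired analysis was possible because each group has 1 array. With the scans matched to the columns, no called difference of a member turned its sign under the alternatives run. Among differences within 2-fold, normexp turned Cox8b, to -0.05 for the contralateral nerve and 0.0061 for 1 h of stimulation over the unstimulated culture. The scans as recorded turned 42 called differences. The gap between the brown and the general median over unstimulated Schwann cells moved with most settings. On the matched scans scaled to the 75th percentile it was -2.80 in the proximal nerve, 0.14 in the dorsal hemisection and -0.47 in the C-level cord. After normexp and quantile normalization it was -2.42 in the distal nerve, -0.12 in the proximal nerve, -1.87 in the contralateral nerve, -0.41 in the dorsal hemisection and 2.26 in the C-level cord. With means in place of medians it was -5.46 in the distal nerve, -3.95 in the proximal nerve, -5.91 in the contralateral nerve, -0.20 in the dorsal hemisection and 1.86 in the C-level cord. With the mean of all probes it was -3.17 in the proximal nerve, -4.97 in the contralateral nerve, 0.27 in the dorsal hemisection and -0.42 in the C-level cord. Against the mean of the 3 cultures it was -5.27 in the distal nerve, -3.08 in the proximal nerve, -5.06 in the contralateral nerve, 0.72 in the dorsal hemisection and -0.41 in the C-level cord. With no filter or floor it was -2.91 in the proximal nerve, -6.70 in the contralateral nerve, 2.33 in the dorsal hemisection and -0.32 in the C-level cord. Over genes above background on both arrays it was -1.31 in the distal nerve, 0.68 in the proximal nerve, -1.83 in the contralateral nerve, 4.36 in the dorsal hemisection and 5.08 in the C-level cord. On the scans as recorded it was -1.01 in the distal nerve, 1.92 in the proximal nerve, 4.46 in the contralateral nerve, 2.80 in the dorsal hemisection and 3.02 in the C-level cord. With each gene left out in turn it ran from -7.08 to -3.74 in the distal nerve, from -4.74 to -1.83 in the proximal nerve, from -6.50 to -2.45 in the contralateral nerve, from -0.54 to 2.65 in the dorsal hemisection and from -0.25 to 2.01 in the C-level cord. Over genes above background on both arrays, of which few were left, the members at least 2-fold above the culture numbered 2 in the distal nerve, 3 in the proximal nerve, 2 in the contralateral nerve, 2 in the dorsal hemisection and 2 in the C-level cord. After normexp it was 3 in the dorsal hemisection. At 4-fold the members lower than in the contralateral nerve numbered 1 in the distal and 1 in the proximal nerve. With no filter or floor 1 member was lower in the cultures stimulated for 1 h and 1 at 24 h, among values at background. On the scans as recorded the members higher than in the culture numbered 0 in the distal nerve, 0 in the proximal nerve, 1 in the contralateral nerve, 0 in the dorsal hemisection, 0 in the C-level cord. There 6 were higher and 2 lower in Schwann cells at 1 h, and 4 higher and 5 lower at 24 h. None (0) was lower in the hemisection than in the C-level cord, 1 was higher in the C-level cord than in the contralateral nerve, 1 was lower in the distal than in the contralateral nerve, and 10 were higher in the distal than in the proximal nerve. For the proximal nerve over the unstimulated culture the reversed values were Ucp1 -1.71, Cidea -3.40, Cox8b -4.10, Adipoq -10.07, Retn -10.38, Pck1 -1.83, Cidec -5.32, Cfd -12.95, Pparg -2.95 and Gys2 -4.82. For the contralateral nerve over the unstimulated culture the reversed values were Adipoq -9.74, Retn -6.18, Pck1 -1.69, Cidec -5.18, Cfd -3.41, Pparg -4.06 and Gys2 -3.46. For the dorsal hemisection over the unstimulated culture the reversed values were Ucp1 -1.97, Cidea -2.78, Cox8b -3.97, Retn -10.64 and Cfd -12.77. For the C-level cord over the unstimulated culture the reversed values were Ucp1 -1.99, Cidea -2.58, Cox8b -4.36, Adipoq -10.35, Retn -10.15, Pck1 -2.11, Cidec -5.60, Cfd -12.15 and Gys2 -5.10. For the distal nerve over the contralateral nerve the reversed value was Pck1 2.10. For the proximal nerve over the contralateral nerve the reversed values were Ucp1 -3.73, Cox8b -2.18 and Pparg 1.11. For the distal nerve over the proximal nerve the reversed value was Cox8b 1.32. For the dorsal hemisection over the C-level cord the reversed values were Cox8b 0.38 and Cfd -0.63. For the C-level cord over the contralateral nerve the reversed values were Ucp1 -4.01, Cidea -2.98, Cox8b -2.44 and Pparg 1.60. By rank those pairs compare other columns than their names give. The cause of the other moves was not tested. Of the 10 genes, 7 were at background in the unstimulated culture, so their differences from it are bounds set by the dim end of the array, and the number of arrays limits the precision.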
